A study of Homo sapiens with 15 samples.

Results

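The replication-dependent histones described here are the rows of the count table whose gene ID maps to H1-1 to H1-6 or to a symbol that starts with H2AC, H2BC, H3C or H4C followed by digits. There were 70 such genes among 21519 in the table: 6 of the H1 class, 17 of H2A, 19 of H2B, 13 of H3 and 15 of H4. A further 13 symbols of this form, all of pseudogenes, had no row in the table. The cells were of HEK-293, a much used line that derives from human embryonic kidney. GEMIN5 cells had been transfected for 24 h with pcDNA3Xpress-Gemin5, a plasmid that expresses GEMIN5, and a lipid reagent (Lipofectamine LTX), whereas control cells were untreated, so the plasmid, the reagent and GEMIN5 itself cannot be told apart in these comparisons. GEMIN5 is an RNA-binding protein of the complex that assembles splicing particles. The cytoplasmic lysate was sequenced as Input. Fractions 8 to 12 of 12 from a gradient of 10 to 50% sucrose were sequenced as Polysome. Cycloheximide, which holds ribosomes on mRNA, was used for 10 min for all 15 libraries, Input and Polysome alike. There were 3 Input GEMIN5, 4 Input control, 4 Polysome GEMIN5 and 4 Polysome control libraries. The series was made to ask if splicing changes under altered GEMIN5 levels reach translation, and the histones are read here for the same comparisons of cells and fractions.

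Histone H2A, H2B, H3 and H4 form the nucleosome core around which DNA is wrapped, and H1 binds the linker DNA between cores. Most genes of these classes lie in clusters, have no introns and are transcribed mainly during S phase, when new DNA has to be packaged. Their mRNAs usually end in a conserved stem-loop in place of a poly(A) tail. The stem-loop-binding protein SLBP and the U7 small nuclear ribonucleoprotein act at this end during processing, and SLBP also takes part in translation of the mRNA. The libraries were made with a kit that selects poly(A) RNA, per the labels, so the values are levels of the histone RNA that such a kit captured, and RNA without a tail is measured poorly if at all.

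Counts summed to between 11191417 and 18407933 per library, and the 70 genes together took 0.0229% to 0.0554% of them. GEMIN5 RNA checked the labels: its log2 fold change in GEMIN5 cells over control cells was 6.68 in Input and 7.31 in Polysome (edgeR adjusted p = 9.70e-14 and 2.74e-14). The Input GEMIN5 libraries stood apart in make-up. Ribosomal protein genes took 54.9% to 59.5% of their counts, against 33.9% to 35.1% in Input control libraries, and edgeR's TMM scaling factors were 0.354 to 0.488 in Input GEMIN5 and 0.971 to 1.03 in Input control. In the 8 Polysome libraries the factors were 1.27 to 1.55. Of 5 genes known for HEK-293 cells 4 or 5 were detected in each library. A set of 10 liver genes held 37 to 56 counts per Input GEMIN5 library against 15 to 1255 per Input control library, and 12 to 26 counts per Polysome GEMIN5 library against 1080 to 1458 per Polysome control library. A set of 5 blood genes held 22 to 51 counts in Input GEMIN5, 21 to 41 in Input control, 19 to 24 in Polysome GEMIN5 and 68 to 117 in Polysome control. The part of these other genes in the histone values was not tested. The labels do not say whether replicates came from separate cultures, so each p-value here is set against the spread of these samples alone, which may be technical.

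Of the 70 genes, 55 lie on chromosome 6 between positions 25723397 and 27893891 and 13 on chromosome 1, while H4C16 is on chromosome 12 and H2BC12L on chromosome 21 (GRCh38). Of all members, 52 had compact rows of 386 to 797 nt, the size of an intronless histone gene. The other 18 genes had extended rows of 1250 to 29685 nt, which take in longer or spliced transcripts. The filter on low counts left 46 genes for testing: 3 of H1, 13 of H2A, 11 of H2B, 9 of H3 and 10 of H4. Of the other 24, 11 were listed at 0 in all 15 libraries and 13 had few counts, with H2BC6 reaching the most, 14 in a library. Among those at 0, H2AC7 and H3C4 lie inside the row of a gene without a symbol (ENSG00000282988) on the same strand, H2BC1 lies inside the row of another (ENSG00000290217), also on the same strand, and H2AC17 overlaps H3C12 by 408 nt, so reads there may not have been assigned. Near-identical neighbours on chromosome 1 (H2AC18 and H2AC19, H3C14 and H3C15, H4C14 and H4C15) can share reads, and the split of counts within each of these pairs is uncertain.

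The stem-loop that ends histone mRNAs was searched for in GENCODE 29 transcripts as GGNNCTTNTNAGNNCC on the transcribed strand. It was found in 29 of the 66 members that this annotation holds, against 106 of 21225 other genes (0.499%). Many of its histone transcripts end at the stop codon, so a gene without a match here says nothing of its own 3′ end. The forms below were chosen because they show how the stem differs between classes. Capitals mark the stem-loop, with 5 transcript bases in lower case on each side, on the sense strand:
H2AC25: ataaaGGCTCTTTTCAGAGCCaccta
H2BC21: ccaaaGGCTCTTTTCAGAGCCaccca
H2BC4: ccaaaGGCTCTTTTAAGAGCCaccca
H3C14: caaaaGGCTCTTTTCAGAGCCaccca
H4C11: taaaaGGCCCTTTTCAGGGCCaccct
H4C14: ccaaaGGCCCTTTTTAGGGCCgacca
All 8 H4 genes with a match carried a stem opening with GGCCC, and the 21 H2A, H2B and H3 genes carried one opening with GGCTC. By full sequence of stem and loop, 15 genes carried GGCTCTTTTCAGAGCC, 4 carried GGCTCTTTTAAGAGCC, 5 H4 genes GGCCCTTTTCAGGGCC and 3 H4 genes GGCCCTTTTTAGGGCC. 1 H2A gene (H2AC11) and 1 H3 gene (H3C6) carried forms of their own.

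Levels between genes can be compared only per length, so TMM-scaled CPM (counts scaled to a common library total) were divided by the row length in kb for the tested genes with compact rows. In Input GEMIN5 the order was H4C12 (480 ± 35.7 CPM per kb, SD, n = 3), H2BC12 (171 ± 32.4), H2AC18 (106 ± 22.5) and H1-2 (61.6 ± 17.1). In Input control it was H2BC12 (148 ± 18.6 CPM per kb, SD, n = 4), H4C12 (91.8 ± 11.1), H2AC18 (26.7 ± 2.77) and H1-2 (23.1 ± 1.92). The same order as in Input control held in Polysome GEMIN5, where H2BC12 stood at 150 ± 19.8 and H4C12 at 73.9 ± 31.9 CPM per kb, and in Polysome control, at 170 ± 24.5 and 127 ± 1.97 (SD, n = 4 each). H4C12 thus led in Input GEMIN5, and H2BC12 in the other 3 groups. In Input control the H2AC18 and H1-2 levels differed by less than about the sum of their SDs, and the other neighbours named there by more.

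The share that each class takes of all histone counts in a library does not depend on how libraries are scaled. H4 genes took 36.9% ± 2.14 of histone counts in Input GEMIN5 and 22.7% ± 2.10 in Input control, and the ranges of 34.9% to 39.2% and 20.9% to 25.2% did not overlap. H2B genes took 20.6% ± 0.524 in Input GEMIN5 and 37.2% ± 1.13 in Input control, again without overlap. The H2A share was 28.2% ± 1.18 in Input GEMIN5 and 26.7% ± 1.46 in Input control, and the H1 share 7.35% ± 0.840 in Input GEMIN5 and 8.01% ± 0.111 in Input control, with overlapping libraries in both classes. H3 genes took 6.87% ± 0.754 in Input GEMIN5 and 5.41% ± 0.261 in Input control, without overlap (SD, n = 3 and 4 in these sentences). A single gene carried much of each move: H4C12 took 24.3% ± 2.21 in Input GEMIN5 and 13.8% ± 1.56 in Input control, and H2BC12 took 10.9% ± 0.563 in Input GEMIN5 and 28.4% ± 1.55 in Input control. The H2B share was 34.4% ± 1.26 in Polysome GEMIN5 and 33.1% ± 0.379 in Polysome control (SD, n = 4 each), with ranges of 33.5% to 36.1% and 32.5% to 33.4% that lay side by side. The H4 share was 19.3% ± 3.78 in Polysome GEMIN5 and 25% ± 1.56 in Polysome control, with 1 Polysome GEMIN5 library (24.6%) inside the control range of 23.9% to 27.2%. The H1 share was 12.8% ± 1.28 in Polysome GEMIN5 and 10.9% ± 0.898 in Polysome control, and lay above both Input groups in every library.

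**Figure D1:**
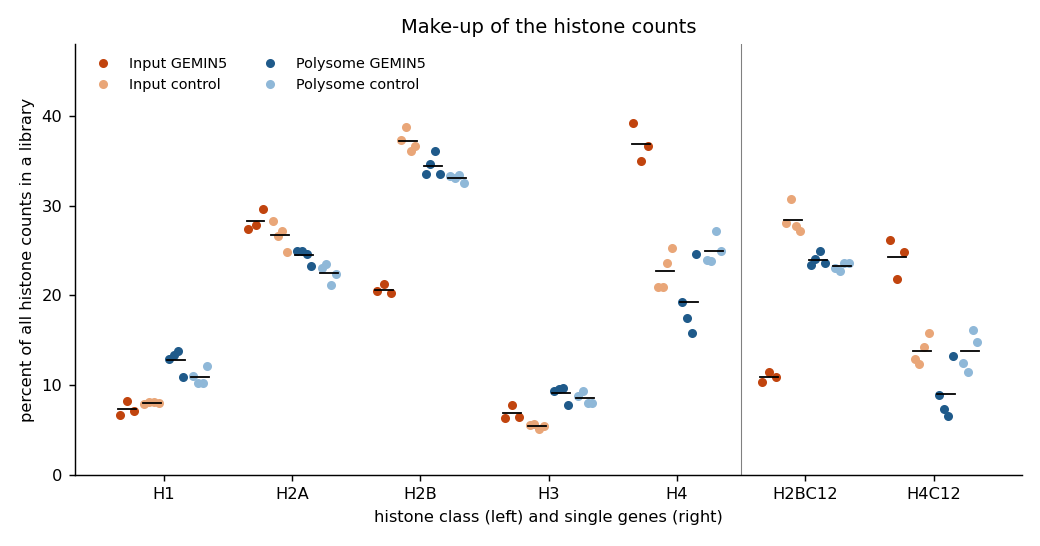
Percent of all histone counts in a library (y axis) taken by each class and by H2BC12 and H4C12 (x axis); points are libraries, coloured by group, and black lines are group means. In Input GEMIN5 the H4 points sit at 34.9% to 39.2% and the H2B points at 20.2% to 21.2%, apart from the other 3 groups.

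The lysate comparison asks which RNAs changed in GEMIN5 cells. In Input GEMIN5 over Input control, histone RNAs were higher in all 5 classes relative to the median gene. By edgeR's quasi-likelihood test with TMM scaling, 42 of 46 tested members were higher and 0 lower at an adjusted p under 0.05, where 27.1% of the 12197 tested genes were higher and 24.4% lower. The median log2 fold change of the members was 1.85, against −0.01 over all tested genes. In 41 members every Input GEMIN5 library lay above every Input control library, which was so for 29.8% of tested genes. All 10 tested H4 genes rose, with a median of 2.32, as did all 3 H1 genes with a median of 1.41. Of H2A genes 12 of 13 rose (median 1.98), of H2B genes 9 of 11 (1.65) and of H3 genes 8 of 9 (1.87). By position, 29 of 32 tested members on chromosome 6 and 12 of 12 on chromosome 1 rose, with medians of 1.85 and 1.95. Of 15 extended rows 13 were called, with a median over the 15 of 1.65, and of 31 compact rows 29, with a median over the 31 of 1.99.

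This shift has to be read beside the scaling and the length of the RNAs. With library size only, the median of all tested genes moved to −1.29, and 19 members were then higher and 3 lower, with a member median of 0.56. That setting lowers all genes of this comparison together, and the member median stayed above that of all tested genes. The shares of all tested genes called under it are not given here. The class medians under that scaling were 0.10 for H1, 0.67 for H2A, 0.36 for H2B, 0.58 for H3 and 1.02 for H4, in the same order as with TMM scaling. Short RNAs of other genes also stood higher in Input GEMIN5: for 42 tested genes outside the members whose longest transcript is at most 600 nt the median was 1.85 with 30 higher, and for 274 genes of over 600 and up to 1000 nt it was 1.57 with 238 higher. For 1668 genes of over 1000 and up to 2000 nt the median was 0.47. For the 4639 genes of over 2000 and up to 4000 nt the median was −0.13. By the same measure some members exceed 600 nt, such as H1-2 (642 nt), H3C14 (1656 nt) and H2BC21 (2194 nt). H2AC18 had no length in the annotation. The genes up to 600 nt, here and below, are thus not matched in length to all members. The part of transcript length and library make-up in the histone values was not tested. In bulk RNA, a larger share of cells in S phase and more histone RNA per cell cannot be told apart.

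**Figure D2:**
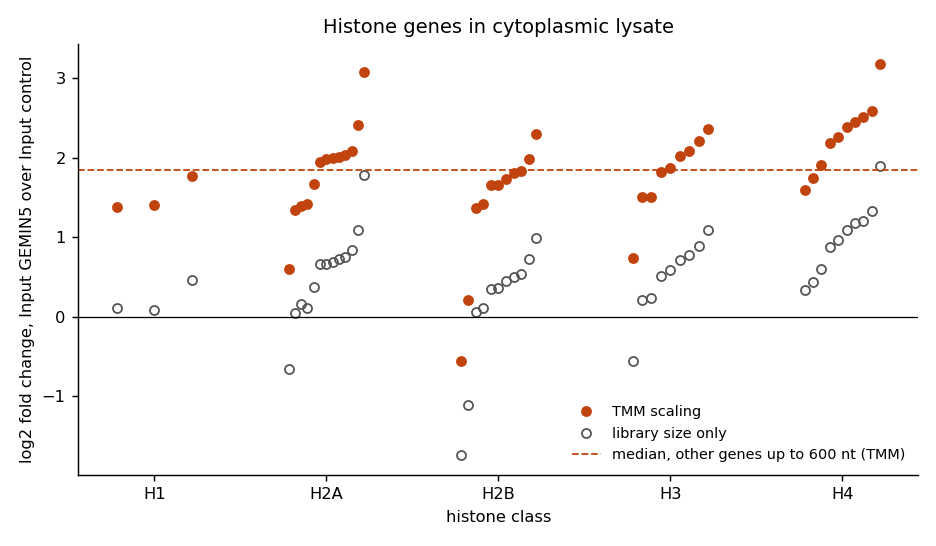
Log2 fold change of each tested histone gene in Input GEMIN5 over Input control (y axis) by class (x axis), with TMM scaling (filled) and with library size only (open). The dashed line is the TMM-scaled median of 1.85 for other genes with transcripts up to 600 nt, a length that some members exceed. Filled points of H4 genes run from 1.60 to 3.18.

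Among H4 genes, most of which encode the same protein, H4C12 (chromosome 6, 27831174 to 27831560, minus strand) had the highest level. It stood at 170.4, 189 and 197 CPM in the 3 Input GEMIN5 libraries, against 30.2, 34.7, 36.6 and 40.5 CPM in the 4 Input control libraries. The groups were far apart, and the log2 fold change was 2.39 (SE 0.22, edgeR adjusted p = 7.63e-08). H4C14 held 31.8, 49.8 and 40.3 CPM in Input GEMIN5 against 10.1, 11.9, 10.6 and 10.5 CPM in Input control, and the log2 fold change was 1.91 (SE 0.20, edgeR adjusted p = 3.16e-07). H4C11 (chromosome 6, 27824092 to 27824480, plus strand) held 20.03, 22.4 and 22.8 CPM in Input GEMIN5 against 2.93, 3.04, 6.07 and 7.18 CPM in Input control, with no overlap (log2 fold change 2.18, SE 0.29). The largest change of any member was that of H4C1, at 1.45, 2.13 and 1.80 CPM in Input GEMIN5 against 0.309, 0.230, 0.0690 and 0.145 CPM in Input control, low levels that gave a log2 fold change of 3.18 with an SE of 0.46.

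H3 genes followed the same direction. H3C14 (chromosome 1, 149840687 to 149841208, minus strand) held 15.0, 27.7 and 18.4 CPM in Input GEMIN5 against 4.17, 4.36, 4.42 and 4.496 CPM in Input control, where the 4 libraries were nearly equal, and the log2 fold change was 2.21 (SE 0.22, edgeR adjusted p = 1.53e-07). H3C10 (7.79, 9.01 and 5.54 CPM in Input GEMIN5 against 2.78, 3.16, 2.07 and 2.39 CPM in Input control) and H3C2 (6.34, 10.5 and 9.58 CPM in Input GEMIN5 against 2.31, 2.696, 2.00 and 2.83 CPM in Input control) showed no overlap of the groups either, with log2 fold changes of 1.51 and 1.82. H3C14 (0.89) and H3C2 (0.50) passed with library size only, and H3C10 (0.23, edgeR adjusted p = 0.446) did not. H3C6 did not pass (0.73, edgeR adjusted p = 0.254).

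The linker histone gene H1-2 held 33.1, 58.0 and 44.0 CPM in Input GEMIN5 against 15.6, 18.6, 17.4 and 15.95 CPM in Input control, and the log2 fold change was 1.41 (SE 0.17, edgeR adjusted p = 1.12e-06). H1-4 (chromosome 6, 26156329 to 26157115, plus strand) held 7.68, 11.5 and 10.2 CPM in Input GEMIN5 against 2.08, 3.10, 2.76 and 3.41 CPM in Input control and H1-3 2.34, 2.13 and 2.55 CPM in Input GEMIN5 against 0.771, 1.21, 0.621 and 0.943 CPM in Input control, with log2 fold changes of 1.76 and 1.38. Every Input GEMIN5 library was above every Input control library for the 3 genes with TMM scaling. Scaled by library size only, the log2 fold changes were 0.08 for H1-2, 0.10 for H1-3 and 0.46 for H1-4, none of the 3 passed (edgeR adjusted p = 0.569, 0.755 and 0.0621), and the libraries of H1-2 and H1-3 overlapped. The other H1 genes of the class were at 0 (H1-1) or reached 1 count in a single library (H1-5 and H1-6).

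H2A genes with the highest counts rose as well with TMM scaling. H2AC25 (chromosome 1, 228434777 to 228457873, minus strand, an extended row) held 79.6, 111 and 110.2 CPM in Input GEMIN5 against 36.8, 36.8, 39.7 and 36.8 CPM in Input control, and the log2 fold change was 1.42 (SE 0.15, edgeR adjusted p = 2.40e-07). H2AC18 (chromosome 1, 149842218 to 149842750, minus strand) held 45.1, 69.0 and 55.1 CPM in Input GEMIN5 against 13.7, 16.2, 14.4 and 12.7 CPM in Input control and H2AC20 13.2, 17.4 and 18.4 CPM in Input GEMIN5 against 4.55, 6.88, 4.14 and 4.71 CPM in Input control, with log2 fold changes of 1.98 and 1.67. H2AC15 had few counts and the largest change in its class (3.08, SE 0.57), with 1.22, 1.64 and 2.995 CPM in Input GEMIN5 and 0.231, 0.402, 0.0690 and 0.145 CPM in Input control. Under library size only, H2AC18 still passed (0.67), whereas H2AC25 (0.10, edgeR adjusted p = 0.414) and H2AC20 (0.37, edgeR adjusted p = 0.113) did not and their libraries overlapped. H2AC6 did not pass with TMM scaling: it held 3.23, 2.13 and 2.55 CPM in Input GEMIN5 and 1.47, 1.89, 2.28 and 1.38 CPM in Input control, groups that overlapped (log2 fold change 0.60, SE 0.29, edgeR adjusted p = 0.0876).

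H2BC12 (chromosome 6, 27146361 to 27146855, minus strand) was the exception among abundant members. It held 67.7, 99.6 and 86.5 CPM in Input GEMIN5 against 65.6, 86.7, 71.3 and 69.7 CPM in Input control. The libraries of the groups were interleaved, and the log2 fold change was 0.20 (SE 0.16, edgeR adjusted p = 0.290). With library size only its level was lower in Input GEMIN5, at −1.11 (edgeR adjusted p = 3.01e-07), so the call and the direction for this gene rest on the scaling. Other H2B genes rose with TMM scaling: H2BC5 held 17.4, 18.2 and 16.6 CPM in Input GEMIN5 against 4.70, 5.28, 5.11 and 7.04 CPM in Input control and H2BC11 13.8, 18.8 and 16.02 CPM in Input GEMIN5 against 5.01, 4.82, 4.97 and 5.80 CPM in Input control, with log2 fold changes of 1.65 and 1.65 and no overlap. H2BC5 (0.36) and H2BC11 (0.34) did not pass with library size only (edgeR adjusted p = 0.0888 and 0.0913). H2BC12L, an H2B gene outside the clusters, had at most 16 counts in any library and stood at −0.56 (SE 0.69, edgeR adjusted p = 0.559). The count of H4C12 per count of H2BC12 puts the contrast between both genes free of any scaling. It was 2.52, 1.898 and 2.28 in the Input GEMIN5 libraries, against 0.461, 0.4004, 0.513 and 0.582 in the Input control libraries.

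**Figure D3:**
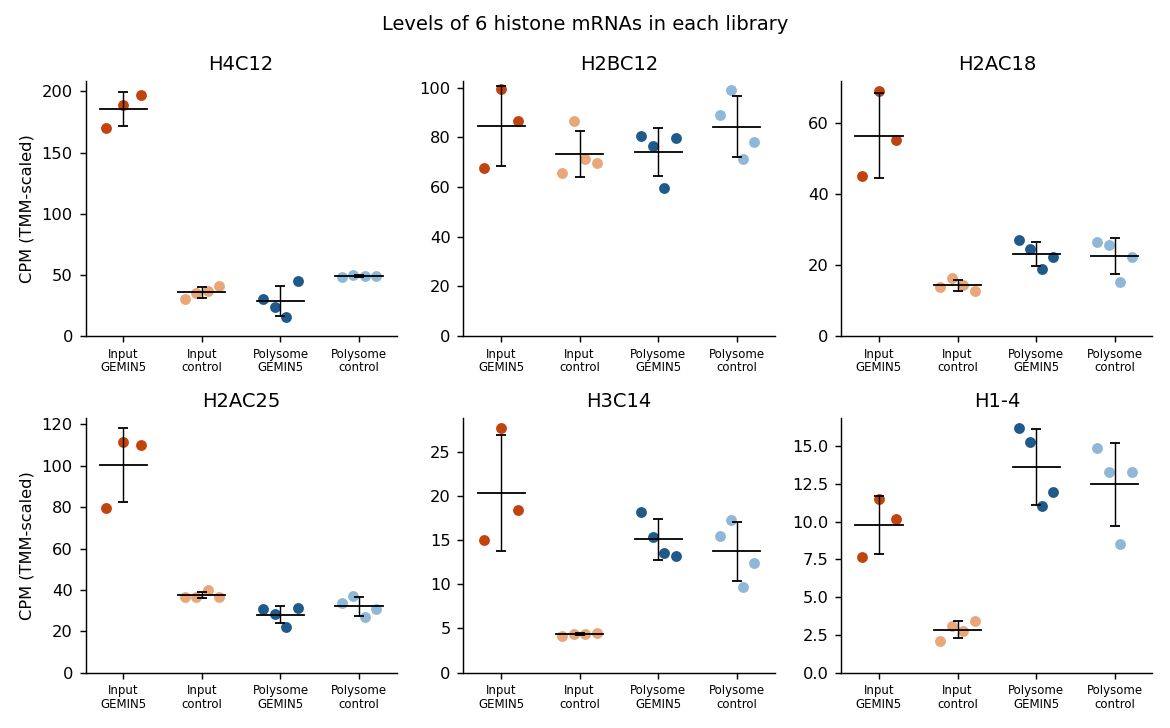
TMM-scaled CPM (y axis, from 0) of 6 histone genes in each library by group (x axis); points are libraries, long lines the means and bars the SD. H4C12 is at 170.4, 189 and 197 CPM in Input GEMIN5 and at most 50.1 CPM in every other library, while H2BC12 overlaps across all 4 groups and H1-4 is lowest in Input control.

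Some cluster histones are known to give polyadenylated RNA as well as the stem-loop form. A list of 6 such genes (H2BC21, H2BC12, H2BC5, H2BC4, H2AC6 and H1-2), written from general knowledge, had 4 higher, 0 lower and a median of 1.39 in the Input comparison, beside 42 of 46 and 1.85 for all members. H2BC21 held 5.12, 8.85 and 6.14 CPM in Input GEMIN5 against 2.31, 2.98, 2.69 and 2.25 CPM in Input control, and H2BC4 8.13, 5.08 and 7.19 CPM in Input GEMIN5 against 1.62, 1.78, 2.00 and 1.52 CPM in Input control, with log2 fold changes of 1.36 and 1.98. The list under library size only had 1 higher, 2 lower and a median of 0.07. The 2 that did not pass with TMM scaling were H2BC12 and H2AC6. Whether the tailed and stem-loop forms of these genes changed alike was not tested, since the counts do not separate them.

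Histone genes often lie head to head, with H2A and H2B transcribed away from each other out of a shared spacer. Within 1000 nt there were 14 such divergent pairs with spacers of 169 to 978 nt, of which 12 joined an H2A and an H2B gene and 7 of these had both genes tested. In 5 of the 7 both genes rose in the Input comparison. H2BC12 shares a spacer of 250 nt with H2AC12, which held 10.1, 8.35 and 10.5 CPM in Input GEMIN5 against 2.16, 2.93, 2.76 and 2.18 CPM in Input control (log2 fold change 1.94), beside 0.20 for H2BC12. The count of H2BC12 per count of H2AC12 was 8.95 ± 2.69 in Input GEMIN5 (SD, n = 3) and 29.5 ± 2.62 in Input control (SD, n = 4), ranges of 6.68 to 11.9 and 25.9 to 32 that did not overlap. In Polysome GEMIN5 it was 23 ± 7.61 and in Polysome control 19.1 ± 3.23 (SD, n = 4 each), which overlapped. H2BC4 and H2AC6, 218 nt apart, were the other pair in which 1 gene did not pass, at 1.98 and 0.60. H2AC15 and H2BC15 were about as far apart, at 3.08 and 1.73, and both passed.

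**Figure D4:**
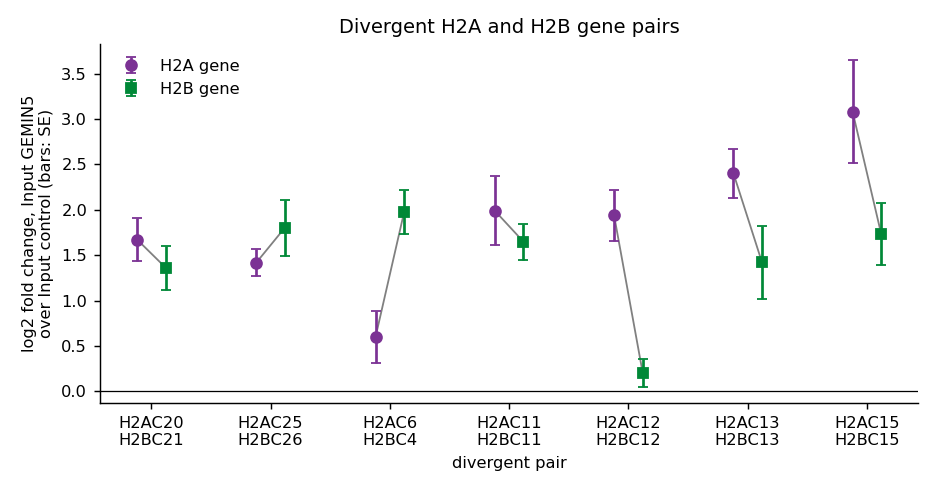
Log2 fold change in Input GEMIN5 over Input control (y axis, TMM-scaled; bars are the SE of the fit) of the H2A gene (circle) and the H2B gene (square) of 7 divergent pairs (x axis). H2BC12 (0.20) lies far below H2AC12 (1.94), H2AC6 (0.60) lies below H2BC4 (1.98), and the other 5 pairs have both genes at 1.36 or more.

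The promoters on the H2B side of these pairs are shown because a single spacer stands before 2 genes of which 1 rose in the Input comparison and 1 did not pass. The difference between the genes of a pair was not tested. The windows run from 250 bases before to 50 bases after the RefSeq start (GRCh38.p14), on the minus strand, which is the sense strand of both H2B genes. Capitals mark matches on either strand to the octamer ATTTGCAT, which reads ATGCAAAT on the other strand. They also mark TATAAA, which reads TTTATA on the other strand, and CCAAT, which reads ATTGG on the other strand, and neighbouring matches can overlap. The H2BC12 window is chr6:27146809-27147108 and the H2BC4 window is chr6:26123877-26124176.
H2BC12: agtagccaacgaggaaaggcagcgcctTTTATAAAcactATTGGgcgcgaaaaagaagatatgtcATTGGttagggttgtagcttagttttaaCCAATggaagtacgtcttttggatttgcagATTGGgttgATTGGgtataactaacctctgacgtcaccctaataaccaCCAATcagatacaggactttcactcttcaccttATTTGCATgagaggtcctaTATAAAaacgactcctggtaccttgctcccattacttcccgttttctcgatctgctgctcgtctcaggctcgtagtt
H2BC4: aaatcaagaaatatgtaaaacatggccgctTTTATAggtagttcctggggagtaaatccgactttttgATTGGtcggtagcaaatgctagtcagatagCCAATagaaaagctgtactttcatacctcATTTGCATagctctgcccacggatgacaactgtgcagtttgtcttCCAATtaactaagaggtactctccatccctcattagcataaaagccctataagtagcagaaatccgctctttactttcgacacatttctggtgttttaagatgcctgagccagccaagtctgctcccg
Both windows held 1 octamer, and they held 6 and 3 CCAAT matches. The octamer stood in 11 of 16 H2A promoters (68.8%) and 14 of 18 H2B promoters (77.8%), in 1 of 11 H3, 0 of 6 H1 and 0 of 13 H4 promoters, against 1.54% of 15285 other genes' promoters of this length. CCAAT stood in all H1, H2A, H2B and H3 promoters matched, in 23.1% of H4 promoters and in 36.4% of other genes' promoters. TATAAA stood in 65.6% of the 64 members matched and in 9.38% of other genes. These shares describe letters in the windows and say nothing of factors bound there. Windows of a divergent pair overlap in their shared spacer, so 1 match there can count for both genes, and the H2A and H2B shares are not separate.

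In polysomes the comparison asks which ribosome-bound RNAs changed in GEMIN5 cells. No histone gene passed in Polysome GEMIN5 over Polysome control: 0 of 46 were higher and 0 lower by edgeR's quasi-likelihood test, where 0.082% of tested genes were higher and 0.402% lower (0.484% in either direction), and 7 of the 46 members had an unadjusted p under 0.05, as did 704 of the 12197 tested genes. The median log2 fold change was −0.20, against 0.01 over all tested genes. It was −0.06 for H1, −0.19 for H2A, −0.15 for H2B, −0.44 for H3 and −0.34 for H4. In 4 members (H4C12, H2BC11, H3C2 and H2AC13, the last named because of this count) every Polysome GEMIN5 library lay below every Polysome control library, as did 1.71% of tested genes. These counts are with TMM scaling. With library size only, 8 members lay below in this way and 0 were called. The share of all tested genes under that scaling was not computed. The 10 liver genes held 12 to 26 counts per Polysome GEMIN5 library against 1080 to 1458 per Polysome control library, and their part in these values was not tested.

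H4C12 held 30.4, 23.3, 15.8 and 44.8 CPM in Polysome GEMIN5 against 48.3, 50.1, 48.8 and 49.0 CPM in Polysome control. The control libraries were nearly equal and the GEMIN5 libraries spread widely, with library 4 closest to control, and the log2 fold change was −0.78 (SE 0.20, edgeR adjusted p = 0.122). Without Polysome GEMIN5 replicate 4 the value was −1.09 (edgeR adjusted p = 0.00416), and with no filter on low counts −0.78 (edgeR adjusted p = 0.0228), both past the threshold. H4C11 held 3.22, 2.77, 1.88 and 5.15 CPM in Polysome GEMIN5 against 6.67, 5.73, 5.08 and 6.15 CPM in Polysome control (log2 fold change −0.86, edgeR adjusted p = 0.395) and passed without replicate 4 of Polysome GEMIN5 (−1.17, edgeR adjusted p = 0.0481). For H4C11 that library decided the call. H2BC11 held 5.43, 6.25, 4.14 and 5.64 CPM in Polysome GEMIN5 against 7.68, 10.8, 6.88 and 6.39 CPM in Polysome control, and H3C2 2.54, 3.05, 2.54 and 2.71 CPM in Polysome GEMIN5 against 4.19, 6.09, 3.33 and 3.10 CPM in Polysome control. Their groups did not overlap, and neither passed (−0.57 and −0.62, edgeR adjusted p = 0.346 and 0.532). H4C14 stood at 18.4, 16.5, 11.2 and 18.5 CPM in Polysome GEMIN5 against 21.5, 26.3, 16.3 and 15.9 CPM in Polysome control, with overlap (−0.31, edgeR adjusted p = 0.935).

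With TMM scaling the other abundant members overlapped between the Polysome groups. H2BC12 held 80.4, 76.5, 59.7 and 79.9 CPM in Polysome GEMIN5 against 89.0, 98.9, 71.3 and 78.2 CPM in Polysome control (log2 fold change −0.19, SE 0.14). H2AC18 held 26.9, 24.3, 18.8 and 22.3 CPM in Polysome GEMIN5 against 26.5, 25.6, 15.3 and 22.2 CPM in Polysome control (0.05, SE 0.17), and H2AC25 30.8, 28.3, 22.2 and 31.1 CPM in Polysome GEMIN5 against 33.7, 37.1, 26.7 and 30.7 CPM in Polysome control (−0.19, SE 0.14). H3C14 held 18.2, 15.4, 13.5 and 13.2 CPM in Polysome GEMIN5 against 15.5, 17.3, 9.71 and 12.4 CPM in Polysome control (0.14, SE 0.19). H1-2 stood at 26.2, 25.6, 20.5 and 23.1 CPM in Polysome GEMIN5 against 26.2, 28.2, 20.3 and 24.5 CPM in Polysome control and H1-4 at 16.2, 15.3, 11 and 12.0 CPM in Polysome GEMIN5 against 14.9, 13.3, 8.50 and 13.3 CPM in Polysome control (−0.06 and 0.13). With TMM scaling each of these differences was within the spread between libraries. With library size only, every Polysome GEMIN5 library of H2BC12 lay below every Polysome control library.

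Polysome over Input asks which RNAs were more or less abundant in the ribosome-bound fractions than in the lysate of the same cells. In control cells histone RNAs stood higher in polysomes. There 25 of 46 members were higher and 0 lower, with 24.1% of tested genes higher and 19.1% lower (43.2% in either direction), and the member median was 0.85 against 0.02 over all tested genes. All 3 H1 genes, 6 of 13 H2A, 4 of 11 H2B, 6 of 9 H3 and 6 of 10 H4 genes were called, with class medians of 1.37, 0.85, 0.61, 0.89 and 0.98. Other genes with transcripts up to 600 nt had a median of −0.17 in this comparison, with 4 of 42 higher and 8 lower. With library size only all 46 members were higher, at a median of 1.35. The mean TMM factor was 0.99 in Input control and 1.42 in Polysome control, so leaving it out raises all genes of this comparison together. The share of all tested genes called higher at that setting is not given here. Without Input control 3 and 4, the Input libraries with counts of the liver gene ALB, 16 members were higher. That fit set Input control 1 and 2, with 26 and 15 counts of the 10 liver genes, against Polysome control libraries with 1080 to 1458. It therefore did not make the fractions alike in liver counts.

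The comparison of Polysome with Input in each kind of cell shares its libraries with the comparisons above. The largest difference in control cells was that of H1-4, at 14.9, 13.3, 8.50 and 13.3 CPM in Polysome control against 2.08, 3.10, 2.76 and 3.41 CPM in Input control, with no overlap, and the log2 fold change was 2.12 (SE 0.21, edgeR adjusted p = 4.66e-07). H3C14 held 15.5, 17.3, 9.71 and 12.4 CPM in Polysome control against 4.17, 4.36, 4.42 and 4.496 CPM in Input control (log2 fold change 1.65, SE 0.20). H1-3 stood at 1.52, 3.31, 1.98 and 2.50 CPM in Polysome control against 0.771, 1.21, 0.621 and 0.943 CPM in Input control (1.37, SE 0.27), while the more abundant H1-2 stood at 26.2, 28.2, 20.3 and 24.5 CPM in Polysome control against 15.6, 18.6, 17.4 and 15.95 CPM in Input control (0.55, SE 0.15). H4C14 differed by 0.89 (SE 0.19) and H2BC21 by 0.99 (SE 0.22). Members that did not pass included H2BC12 (0.20, SE 0.14), H2BC5 (0.11, SE 0.17), H2AC20 (0.21, SE 0.22) and H4C12, whose values of 48.3, 50.1, 48.8 and 49.0 CPM in Polysome control and 30.2, 34.7, 36.6 and 40.5 CPM in Input control did not overlap (0.47, edgeR adjusted p = 0.0723). H2AC25 was the 1 member with a negative value (−0.23, SE 0.14).

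In GEMIN5 cells the order was turned with TMM scaling. It was not turned with library size only, where 21 members were higher and 2 lower (median 0.47). The mean TMM factor was 0.406 in Input GEMIN5 and 1.42 in Polysome GEMIN5, so leaving it out raises all genes of this comparison together. The shares of all tested genes called at that setting are not given here, so these counts do not show histones above other genes. The values that follow are with TMM scaling. Of 46 members 34 were lower and 1 higher in Polysome GEMIN5 than in Input GEMIN5, with 35% of tested genes lower and 32.6% higher, and the median was −1.35 against −0.01 over all tested genes. By class 1 of 3 H1, 11 of 13 H2A, 8 of 11 H2B, 5 of 9 H3 and 9 of 10 H4 genes were lower, with medians of −0.35, −1.46, −1.27, −1.36 and −1.67. The change was largest in H4C11, at 3.22, 2.77, 1.88 and 5.15 CPM in Polysome GEMIN5 against 20.03, 22.4 and 22.8 CPM in Input GEMIN5, and the log2 fold change was −2.74 (SE 0.30, edgeR adjusted p = 1.56e-07). H4C12 held 30.4, 23.3, 15.8 and 44.8 CPM in Polysome GEMIN5 against 170.4, 189 and 197 CPM in Input GEMIN5 (log2 fold change −2.701, SE 0.22). H2AC25 held 30.8, 28.3, 22.2 and 31.1 CPM in Polysome GEMIN5 against 79.6, 111 and 110.2 CPM in Input GEMIN5 (−1.84, SE 0.15) and H2AC18 26.9, 24.3, 18.8 and 22.3 CPM in Polysome GEMIN5 against 45.1, 69.0 and 55.1 CPM in Input GEMIN5 (−1.28, SE 0.18). H1-2 was lower by a smaller amount (−0.91, SE 0.16).

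Members that did not pass as lower in GEMIN5 cells were H1-3, H1-4, H2AC6, H2AC21, H2BC12, H2BC21, H3C1, H3C6, H3C14, H3C15 and H4C8. H1-4 stood at 16.2, 15.3, 11 and 12.0 CPM in Polysome GEMIN5 against 7.68, 11.5 and 10.2 CPM in Input GEMIN5 (0.49, edgeR adjusted p = 0.0535). The 1 higher member, H2BC12L, held 0.905, 0.282, 0.470 and 0.542 CPM in Polysome GEMIN5 against 0.223, 0.164 and 0.150 CPM in Input GEMIN5. Its Input GEMIN5 libraries held 2, 1 and 1 counts, all under the floor of 3 counts. Its call (log2 fold change 1.52, edgeR adjusted p = 0.0342) was lost with DESeq2 (adjusted p = 0.101), with only the groups compared in the fit (0.0535), without any 1 of the Input GEMIN5 libraries (0.0621 to 0.0916, edgeR) and without Polysome GEMIN5 replicate 1 (1.19, edgeR adjusted p = 0.116). Other genes with transcripts up to 600 nt had a median of −2.01 in GEMIN5 cells, with 32 of 42 lower. With library size only, all genes of this comparison shift upward. The histone median turned to 0.47, with 21 members higher and 2 (H4C11 and H4C12) lower. H4C11 and H4C12 as lower and H2BC12L as higher kept direction and call under both scalings.

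**Figure D5:**
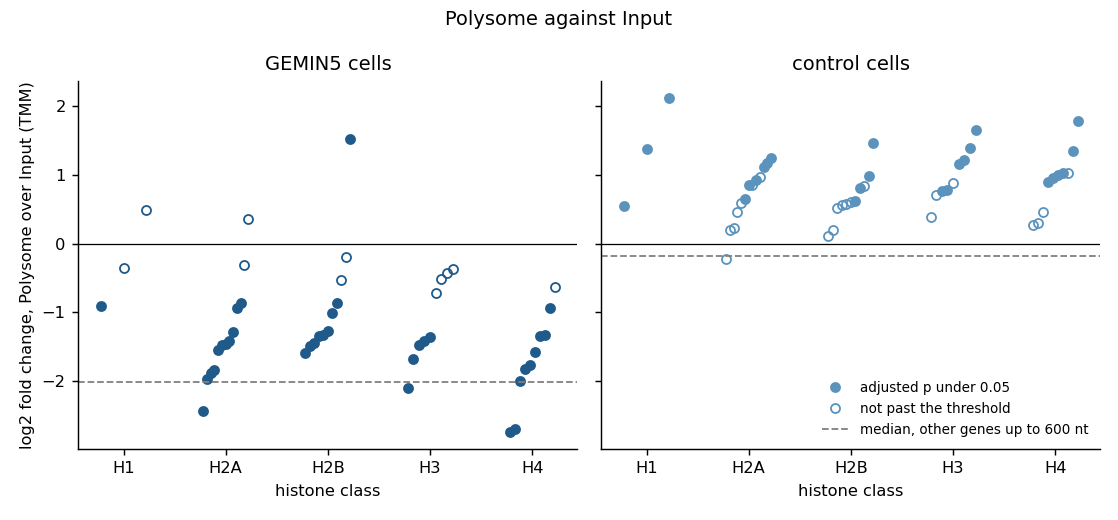
Log2 fold change of Polysome over Input (y axis, TMM-scaled) for each tested histone gene by class (x axis), in GEMIN5 cells (left) and control cells (right); filled points passed an adjusted p under 0.05 and dashed lines are medians of other genes with transcripts up to 600 nt (−2.01 and −0.17). Most points lie below 0 in GEMIN5 cells and above 0 in control cells, with class medians of −1.67 and 0.98 for H4. Some members have transcripts longer than 600 nt.

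The difference of the GEMIN5 effect between the fractions (the log2 fold change in Polysome minus that in Input) was tested in the same fit. It was negative and past the threshold in 40 of 46 members and positive in 0, where 20.5% of tested genes were lower and 16.9% higher, with a median of −2.05 against −0.01 over all tested genes. All 10 H4 genes (median −2.79), all 3 H1 genes (−1.64), 8 of 9 H3 genes (−2.08), 9 of 11 H2B genes (−1.89) and 10 of 13 H2A genes (−2.01) were among them. H2AC15 had the largest value (−3.41, SE 0.77), followed by H4C12 (−3.17, SE 0.30, edgeR adjusted p = 1.94e-06). H2BC12 stood at −0.39 (SE 0.21, edgeR adjusted p = 0.157) and H2AC6 at −0.56 (SE 0.36). The 42 other genes up to 600 nt had a median of −1.76 with 25 lower. With library size only 20 members were lower and 2 higher, with a median of −0.73, and 8 of the 10 H4 genes were still lower. That setting raises the difference for all genes together, and the shares of all tested genes called under it are not given here. This difference uses the same libraries as the other comparisons and is not separate from them.

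Splicing was read from the deposited percent spliced in (PSI) of vast-tools events. The table held 47 events in 11 members, and 0 of them had 10 corrected reads in all 15 libraries, so no PSI was compared. In at least 1 library 7 events reached 10 reads, in H2BC11, H2BC4, H2BC5 and H3C4. The intron within the extended H2BC5 row had 30.9 spliced reads summed over Input GEMIN5 and 31.6 over Input control, and 48.3 over Polysome GEMIN5 and 33.8 over Polysome control. That of H2BC11 had 13.4 in Input GEMIN5, 13.7 in Input control, 14.95 in Polysome GEMIN5 and 15.2 in Polysome control. An intron event listed under H3C4 (chromosome 6, 26197267 to 26198858) lies mostly outside the H3C4 row, which ends at 26197286. It had up to 12 reads in a library, with at most 4.62 spliced reads in any library. H3C4 was at 0 in the count table and lies inside the row of ENSG00000282988, so these reads cannot be assigned to H3C4. Spliced reads of H2BC5 and H2BC11 were thus seen in all 4 groups. They ran from 4.36 to 16.42 per library for H2BC5 and from 0 to 7.83 for H2BC11.

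Genes that act on histone RNA and protein were read from lists written from general knowledge. Of 27 factors of histone transcription, 3′ end processing, translation and decay 9 were higher and 7 lower in Input GEMIN5, with a median of 0.21, where 27.1% of tested genes were higher and 24.4% lower. These shares are close to those of all genes, and the values of the lists are with TMM scaling only. SLBP, which binds the stem-loop, held 58.4, 43.4 and 55.9 CPM in Input GEMIN5 against 123.5, 113, 120.2 and 115 CPM in Input control, with no overlap (log2 fold change −1.16, SE 0.13, edgeR adjusted p = 7.59e-07). In Polysome GEMIN5 it held 135, 140.1, 149.5 and 133.5 CPM against 113, 149, 151 and 153 CPM in Polysome control, with overlap. SNRPG and SNRPE, ring proteins of small nuclear ribonucleoproteins, and LSM10, a ring protein of the U7 particle, were higher by 2.51, 2.04 and 1.98. Of 16 histone chaperones 1 was higher (IPO4, an importin, at 1.70) and 10 lower, among them RBBP4 (−1.65) and SUPT16H (−1.12), with a median of −0.45. Of 22 genes of S phase and DNA replication 3 were higher and 9 lower, with a median of −0.37. CCNE2 and POLA1, a cyclin and a polymerase subunit, fell, at −1.67 and −1.20. Of 12 histone variants outside the member rule 5 were higher and 5 lower, with H2AJ at 1.56 and H2AZ2 at 1.23 among the higher ones. In Polysome GEMIN5 over Polysome control, 0 genes of these 4 lists passed in either direction by edgeR's test.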

How the data were processed

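RNA from 15 libraries was sequenced after poly(A) selection, and the authors deposited whole-number counts per gene; STAR 2.7.10a, featureCounts and GRCh38 are named per the submitters' processing notes, and no source used here gives the counting options. The authors also deposited a table of splicing events with percent spliced in and other read fields, in the layout of vast-tools. Members and gene lists were chosen with earlier results of these data known. Members were matched by gene ID, and all 15 libraries were fitted at once with edgeR 4.0.16 (R 4.3.3): TMM scaling, edgeR's default filter on low counts (12197 genes kept), the quasi-likelihood test and Benjamini-Hochberg adjustment over all tested genes, with calls at an adjusted p under 0.05. CPM values are TMM-scaled unless stated. Values per library were named for the 3 tested members with the highest mean in each class, the called member with the largest change in each direction of each comparison, called members where at most 3 were called in a direction, and the list of 6 polyadenylated histones; other genes named were chosen after their values were seen. Alternatives were RLE scaling, library size only, no filter, DESeq2 1.42.0, only the groups compared, replicate blocks and leaving out each library. The fit was tested on simulated data with 200 changed genes. Those data were drawn from control profiles without a shift in make-up like that of Input GEMIN5, so they cannot test the scaling. Correlations of same-numbered deviations ran from −0.562 to 0.492, which does not settle whether a number marks a shared culture. No 2 libraries of a group agreed within sampling noise (chi-square per degree of freedom 3.19 to 86.7). Sequences are from RefSeq (promoters, GRCh38.p14) and GENCODE 29 transcripts. Figures were drawn with matplotlib 3.10.9. At these depths 3 counts correspond to 0.163 to 0.268 CPM, which covers counting error only. Values of 2 genes of the background lists are not reported here.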

Additional observations from a re-analysis of the deposited data

Results flagged for a closer look

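The GEMIN5 effect differed between Polysome and Input in 40 of 46 tested members by edgeR's interaction test, each time with a lower value in Polysome. The log2 differences (Polysome effect minus Input effect) of the named members among these 40 were −3.41 for H2AC15, −3.17 for H4C12, −3.04 for H4C11, −2.92 for H4C1, −2.44 for H3C2, −2.31 for H2BC4 and −2.26 for H3C10. They were −2.22 for H2BC11, −2.22 for H4C14, −2.08 for H3C14, −1.93 for H2AC18, −1.76 for H2AC20, −1.72 for H1-3 and −1.64 for H1-4. The remaining ones were −1.61 for H2AC25, −1.52 for H2BC21, −1.46 for H2BC5 and −1.46 for H1-2.

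In 4 of 78 groups of 4 libraries examined, 1 library stood far from the others, and chance alone gives about 1 in 20. H2AC25 was at 39.7 CPM in Input control replicate 3. H2BC4 was at 2.996 CPM in Polysome GEMIN5 replicate 1 and H3C10 at 1.79 CPM in Polysome GEMIN5 replicate 3. The H3 class took 7.74% of histone counts in Polysome GEMIN5 replicate 4.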

How the results depend on the processing

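RLE scaling in all 5 comparisons, and the fit on only the groups compared in the 4 for which it was run (not the difference between fractions), kept the direction of each median of the tested members and moved no count of called members by over 1.5 times. Library size only moved most results. It shifts all genes of a comparison together, and the shares of all tested genes called under it are not given here. In Input GEMIN5 over Input control it gave 19 members higher, 3 lower and a median of 0.56, with H2AC6 at −0.66, H2BC12 at −1.11 and the summed H2B level at −0.58. In GEMIN5 cells, Polysome over Input became 21 higher, 2 lower and a median of 0.47: H1-2 0.93, H1-3 1.44, H2AC18 0.54, H2AC20 0.27, H2BC11 0.22, H2BC12 1.64, H2BC21 1.30, H2BC4 0.28, H2BC5 0.45, H3C10 0.32, H3C14 1.41, H3C2 0.15, H4C1 0.22 and H4C14 0.50, and the summed levels of H1, H2A, H2B and H3 1.30, 0.30, 1.24 and 0.90. In control cells it gave 46 higher, a median of 1.35 and H2AC25 at 0.28. The difference between fractions had 2 higher, 20 lower and a median of −0.73, with H2AC6 at 0.70 and H2BC12 at 0.93. The cause of these moves was not tested beyond the scaling itself. Without a filter, 1 member was lower in Polysome GEMIN5 over Polysome control and 2 were higher in Polysome over Input of GEMIN5 cells, where DESeq2 called 0 higher. Without Input control 3 and 4 together, chosen after seeing the data, 2 were higher in GEMIN5 cells and 16 in control cells. Leaving out 1 library gave an Input median of 1.49 to 1.98 (39 to 42 higher), 0 to 2 lower in Polysome GEMIN5 over Polysome control, and, for Polysome over Input, 0 to 2 higher and 29 to 36 lower with a median of −1.43 to −1.03 in GEMIN5 cells and 17 to 29 higher in control cells. The median difference between fractions ran from −2.22 to −1.73. Across those fits H2BC12 ran from −0.17 to 0.34 in Input and from −0.33 to 0.089 in GEMIN5 cells, turning without Input GEMIN5 replicate 2. In Polysome, H1-4 ran from −0.022 to 0.22 and H2AC18 from −0.10 to 0.14, turning without Polysome control replicate 3, and H2AC18 also turned without Polysome GEMIN5 replicate 1 (−0.034). In control cells H2AC20 ran from −0.024 to 0.40 and H2BC5 from −0.016 to 0.25, turning without Polysome control replicate 2.

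With the replicate number as a block, 42 members were higher in Input (median 1.87), 0 were called in Polysome (−0.18), 34 were lower in GEMIN5 cells (−1.34), 24 higher in control cells (0.84) and 40 lower in the difference (−1.996). With the replicate block within treatment, 2 were higher and 35 lower in GEMIN5 cells, 27 higher in control cells and 40 lower in the difference. The 24 untested members reached at most 14 counts in a library, and 11 of them were at 0 throughout.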
